A study of Mus musculus with 8 samples.

Results

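Complement transcripts were measured in chronic stroke infarcts of aged mice that had been treated with 2-hydroxypropyl-β-cyclodextrin (HPβCD, written HPBCD in the sample labels) or with vehicle. HPβCD is a cyclic oligosaccharide whose cavity binds cholesterol and other lipids. The 30 genes described here encode components, receptors and regulators of complement and were chosen by symbol from the 46078 gene identifiers in the count tables. Each symbol matched 1 identifier. All 8 animals were wild-type C57BL/6J mice aged 18 months that had undergone DH stroke, a closure of the distal middle cerebral artery combined with hypoxia. Beginning 1 week after the stroke, 4 mice were injected under the skin with sterile PBS (vehicle) and 4 with HPβCD at 4 g/kg, on 3 occasions per week over 6 weeks, and the infarcts were collected at 7 weeks. Infarcts were dissected by eye, so each piece could hold a different amount of neighbouring brain. All animals had a stroke, and no uninjured tissue was used here. The question was which arms of the complement system differ between infarcts of HPβCD-treated and vehicle-treated mice.

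Complement is a cascade of proteins that tags debris, antibody complexes and microbes for removal. In the classical pathway, C1q binds a target and activates the proteases C1r and C1s, which cleave C4 and C2 to form an enzyme that splits C3. The lectin pathway enters through other proteases, and the alternative pathway amplifies C3 cleavage. Deposited C3 fragments are read by receptors on phagocytes, the small fragments of C3 and C5 attract and activate leukocytes, and the terminal components form a pore. Soluble and membrane-bound regulators hold each step in check. In brain, microglia and macrophages are the known source of C1q, astrocytes and fibroblasts can make C3, C4 and C1 inhibitor, and C1q and C3 are known for marking synapses and myelin debris for phagocytosis.

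By DESeq2, transcripts of several classical pathway genes were higher in HPβCD than in vehicle infarcts. So were those of *Itgb2*, the soluble regulators *Serping1* and *Cfi* and the membrane regulator *Cr1l*, while those of the membrane regulator *Cd55* were lower. With all 8 libraries, edgeR called none of these genes. Of the 30 genes, 26 passed the filter on low counts. In the fit of HPβCD against vehicle, 19 of these had a fold change above 0 on the log2 scale and 7 below it, with a median of 0.60, beside a median of -0.05 over all 14736 genes tested. By the quasi-likelihood F test of edgeR, adjusted over all genes after Benjamini and Hochberg, 0 of the 26 passed an adjusted p of 0.05, and the smallest adjusted p was 0.0624 (*Serping1*). The same test called 1.95% of all genes. At an unadjusted p under 0.05, edgeR had 12 of the 26 higher, where 11.8% of all genes were higher, and 1 lower, where 16.0% of all genes were lower. DESeq2, the tool used in the study, gave an adjusted p to 28 of the 30 genes and called 9 higher (*C1qa*, *C1qc*, *C1ra*, *C1s1*, *C2*, *Itgb2*, *Cfi*, *Serping1* and *Cr1l*) and 1 lower (*Cd55*). It called 6.1% of all genes higher and 11.4% lower. limma-voom with sample quality weights called 10 of the 26, among them 8 of those that DESeq2 called, but it also called 22.1% of all genes. The calls therefore depended on the test. Any of the 30 genes described below as called by DESeq2 with all 8 libraries was not called by edgeR in that set.

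In 8 of the 26 genes every HPβCD library lay above every vehicle library, and in 0 genes every HPβCD library lay below. The shares over all tested genes were 8.77% and 8.03%. In bulk tissue, fewer cells of a type and less RNA per cell cannot be told apart, which holds for every value given here.

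**Figure D1:**
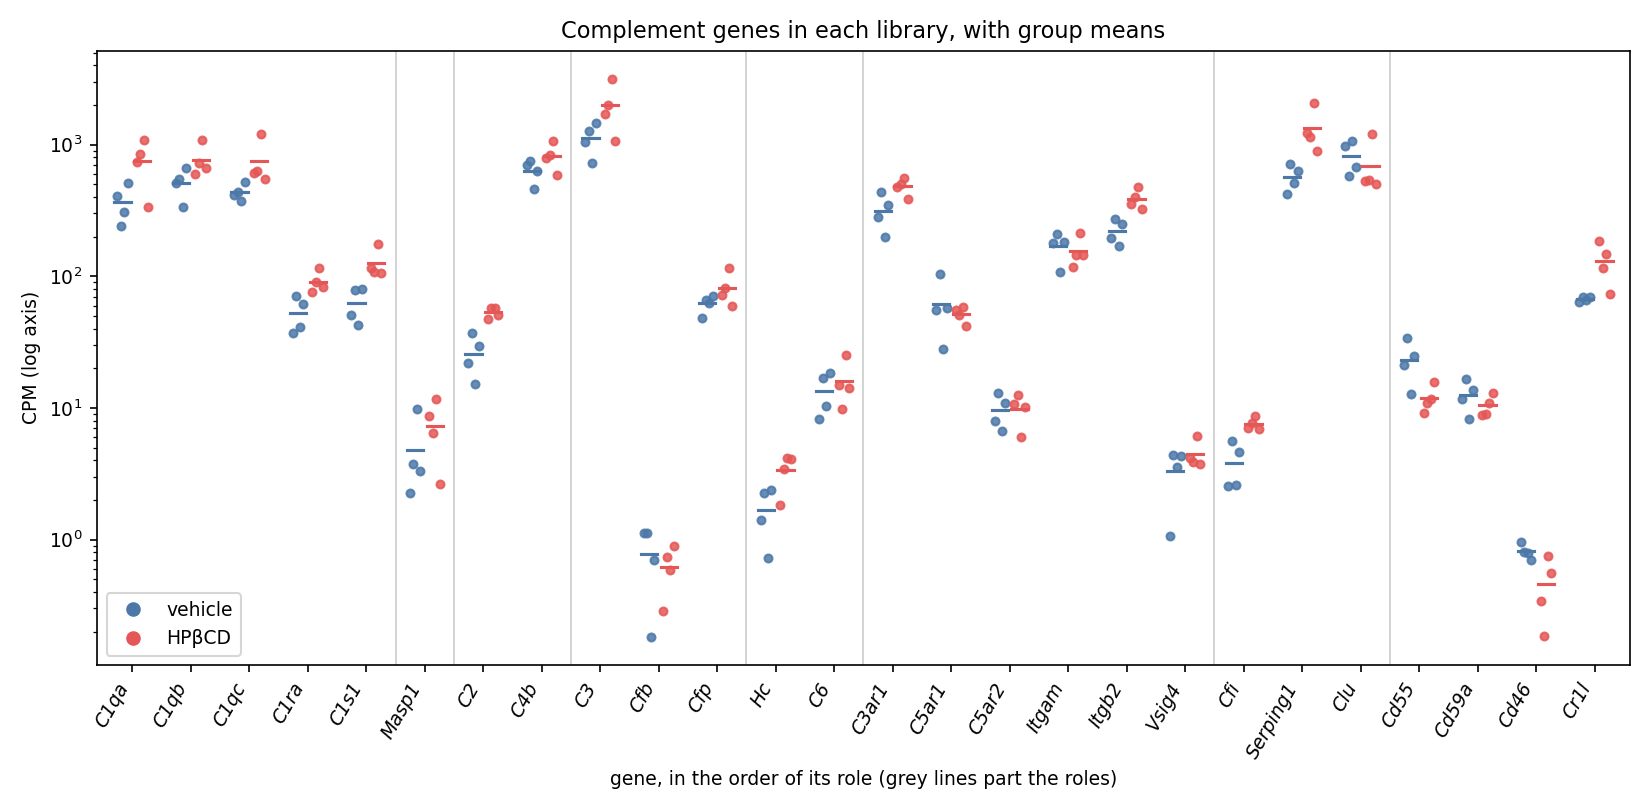
Level of the 26 complement genes that passed the filter, in CPM (counts relative to the TMM-scaled size of each library) on a log axis, with 1 point per library and a bar at each group mean. Vehicle points are blue and HPβCD points are red, and the *C1qa*, *C3* and *Serping1* columns show the HPβCD mean above the vehicle mean, while the *Cd55* column shows it below.

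Libraries held 16.6 M to 32.9 M gene counts. Vehicle replicates 1 and 3 stood apart from the others by neuronal RNA. The 8 neuron markers summed to 947 CPM in vehicle replicate 1 and 5928 CPM in vehicle replicate 3, and to between 3.68 and 76.1 CPM in the other 6 libraries. The fits were therefore also run without these libraries. The median over the 26 genes was then 0.34 and the median over all genes 0.01. The direction of *C6*, *C5ar2* and *Clu* turned, all of which lay within 1 SE of 0 in the full set. DESeq2 without these libraries called *C1s1*, *C2*, *Itgb2*, *Serping1* and *Cr1l* higher, beside 4.8% of all genes, and *Cd55* lower, beside 3.76%. edgeR without them called *Cd55* lower and no other of these genes, with 1.34% of all genes called. Leaving out HPβCD replicate 3 alone lowered the median to 0.35. This library had the highest level within its group in 20 of the 26 genes, and HPβCD replicate 4 had the lowest in 15.

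**Figure D2:**
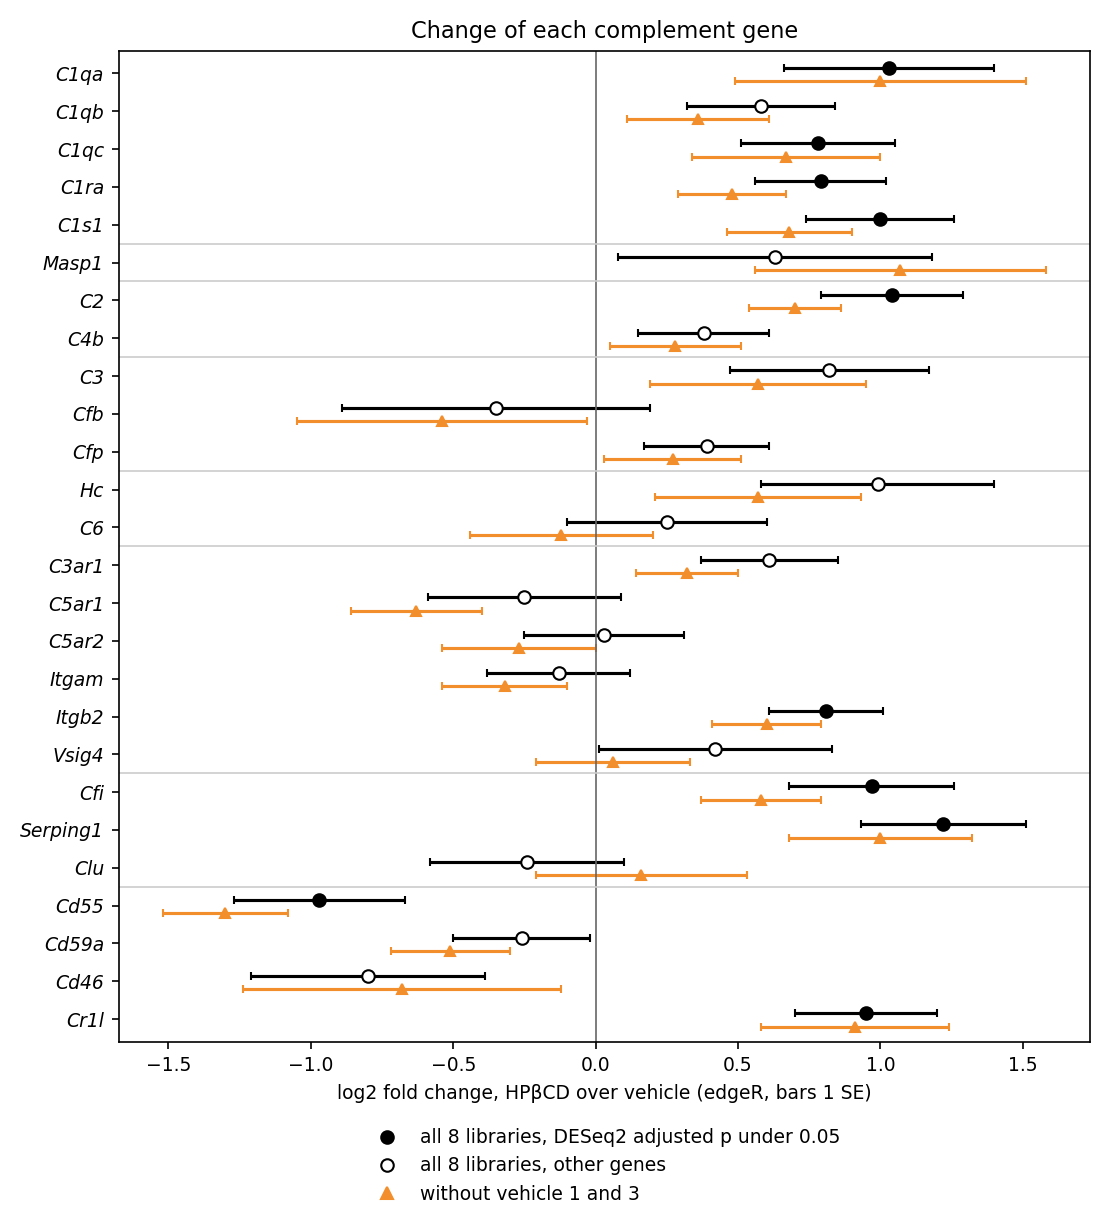
Log2 fold change of HPβCD over vehicle for each of the 26 genes (edgeR, bars 1 SE), with all 8 libraries (circles, filled where DESeq2 gave an adjusted p under 0.05) and without vehicle replicates 1 and 3 (triangles). Most triangles lie closer to 0 than their circles, while that of *Cd55* lies farther below, at -1.30 against -0.97.

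The sequences just before the transcription start show which regulatory letters these genes do and do not share. The table of RefSeq promoters used here (GRCm38.p6, the build of the files) held entries for 20 of the 30 genes, all but *C1qa*, *Masp1*, *C2*, *C4a*, *C4b*, *Cfb*, *Itgb2*, *Cfi*, *Serping1* and *Clu*. The 250 bases before the start were searched on both strands for GAS (TTCNNNGAA, the site of STAT factors), AP-1 (TGANTCA), PU.1 (GAGGAA, a myeloid factor), C/EBP (TTGCNNAA), the E-box (CACGTG) and NF-kB. Over 32851 promoters of the same length, 7.02% held GAS, 6.75% AP-1, 23.3% PU.1, 9.56% C/EBP, 6.02% the E-box and 3.9% NF-kB. A match is a run of letters, not a binding site. Of the 5 windows printed, *C1qb* and *C3* are shown as genes of high level, *C1s1* (the first of its entries) as one called higher by DESeq2, and *Cd55* and *Cr1l* as the pair of membrane regulators whose changes had opposite signs. Capitals mark a match, lower case the rest, and each is read 5′ to 3′ on the strand of the gene. All 5 genes lie on the minus strand.
C1qb (chr4:136886201-136886450): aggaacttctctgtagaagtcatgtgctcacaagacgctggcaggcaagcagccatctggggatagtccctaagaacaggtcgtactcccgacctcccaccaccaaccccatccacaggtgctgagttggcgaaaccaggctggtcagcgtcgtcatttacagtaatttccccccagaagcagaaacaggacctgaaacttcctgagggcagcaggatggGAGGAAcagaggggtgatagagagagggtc
C1s1 (chr6:124542360-124542609): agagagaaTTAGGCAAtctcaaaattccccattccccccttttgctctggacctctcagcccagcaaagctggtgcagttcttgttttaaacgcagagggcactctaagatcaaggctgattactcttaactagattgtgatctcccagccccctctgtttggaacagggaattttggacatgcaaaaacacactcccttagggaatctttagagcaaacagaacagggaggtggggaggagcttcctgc
C3 (chr17:57228137-57228386): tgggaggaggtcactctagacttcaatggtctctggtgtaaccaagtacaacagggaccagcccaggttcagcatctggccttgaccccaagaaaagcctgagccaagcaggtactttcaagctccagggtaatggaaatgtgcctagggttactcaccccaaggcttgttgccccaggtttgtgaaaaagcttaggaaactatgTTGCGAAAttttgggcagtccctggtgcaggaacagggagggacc
Cd55 (chr1:130462745-130462994): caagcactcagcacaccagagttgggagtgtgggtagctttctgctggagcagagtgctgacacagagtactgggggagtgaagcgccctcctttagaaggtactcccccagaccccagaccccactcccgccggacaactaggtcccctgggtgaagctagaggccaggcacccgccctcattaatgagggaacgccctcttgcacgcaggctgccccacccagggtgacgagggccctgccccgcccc
Cr1l (chr1:195131571-195131820): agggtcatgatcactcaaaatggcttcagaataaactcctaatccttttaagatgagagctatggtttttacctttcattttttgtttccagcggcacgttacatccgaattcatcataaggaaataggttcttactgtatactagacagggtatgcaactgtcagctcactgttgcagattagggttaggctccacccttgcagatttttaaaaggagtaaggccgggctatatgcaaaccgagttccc
The capitals in *C1qb* are a PU.1 match whose first base stands at position -30 from the start. Those in *C1s1* and *C3* are C/EBP matches on the minus and plus strand of the window, at -242 and -45. The window of the other *C1s1* entry, not printed, held no match. The windows of *Cd55* and *Cr1l* held none of the 6 motifs. Elsewhere, PU.1 letters were found before *C1qc*, *C5ar2*, *Itgam*, *Vsig4* and *Cd59a*, C/EBP before *C5ar2*, GAS before *Masp2* and *C7*, AP-1 before *C3ar1* and NF-kB before *C1qc*.

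All 5 genes of the C1 complex had higher means after HPβCD, with a median log2 fold change of 0.79, and DESeq2 called 4 of them. *C1qa*, *C1qb* and *C1qc* encode the 3 chains of the recognition molecule C1q and lie side by side on chromosome 4 (GRCm38, positions 136880129 to 136898803, minus strand). *C1qa* stood at 407, 240, 306 and 513 CPM in vehicle replicates 1 to 4 and at 735, 844, 1075 and 334 CPM in HPβCD replicates 1 to 4. HPβCD replicates 1, 2 and 3 lay above every vehicle library, and replicate 4 fell inside the vehicle range. The log2 fold change was 1.03 ± 0.37 (SE), with an adjusted p of 0.116 by edgeR and 0.0389 by DESeq2.

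*C1qb* stood at 508, 550, 337 and 661 CPM in the vehicle libraries and at 602, 729, 1090 and 659 CPM in the HPβCD libraries. The groups overlapped, and neither edgeR (adjusted p = 0.186) nor DESeq2 (0.147) called it. *C1qc* stood at 413, 434, 370 and 519 CPM in vehicle and at 614, 626, 1204 and 545 CPM in HPβCD. Its groups did not overlap, but the gap between vehicle replicate 4 and HPβCD replicate 4 was small. Its log2 fold change was 0.78 ± 0.27 (SE), with an adjusted p of 0.108 by edgeR and 0.0412 by DESeq2. Without vehicle replicates 1 and 3, with fewer libraries to test, DESeq2 gave log2 fold changes of 0.99 for *C1qa* and 0.65 for *C1qc* with adjusted p of 0.272 and 0.137, so the calls were lost at similar fold changes.

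The proteases of the complex, *C1ra* (C1r) and *C1s1* (C1s), are neighbours on chromosome 6. *C1ra* stood at 37.3, 70.3, 41.5 and 61.4 CPM in vehicle and at 75.6, 90.4, 116 and 82.8 CPM in HPβCD. *C1s1* stood at 50.6, 78.8, 42.6 and 80.2 CPM in vehicle and at 115, 107, 176 and 106 CPM in HPβCD. For both, every HPβCD library lay above every vehicle library, and vehicle replicates 1 and 3 were the lowest. They changed by 0.79 ± 0.23 (SE) and 1.00 ± 0.26 (SE) on the log2 scale, with adjusted p of 0.0850 and 0.0692 by edgeR and 0.0269 and 0.00822 by DESeq2. Without vehicle replicates 1 and 3, DESeq2 gave fold changes of 0.47 and 0.67 on the log2 scale, with adjusted p of 0.128 for *C1ra* and 0.0388 for *C1s1*. In the reference transcripts, 42.4% of the 75-base stretches of *C1ra* also occur in another gene, chiefly its copy *C1rb*, and 13% of those of *C1s1* in *C1s2*, so the counts of both are uncertain. *C1rb* and *C1s2* themselves were at 0.344 CPM or less and 0.698 CPM or less in every library.

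Of the 2 lectin pathway proteases, *Masp1* was measured at 4.79 ± 3.40 CPM (SD, n = 4) in vehicle and 7.37 ± 3.78 CPM (SD, n = 4) in HPβCD infarcts. The groups overlapped, and the log2 fold change of 0.63 ± 0.55 (SE) was not called. *Masp2* had 4 counts in all 8 libraries together and was not tested.

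The proteins C4 and C2 form the C3-splitting enzyme of the classical and lectin pathways. *C2* stood at 22.1, 36.8, 15.1 and 29.5 CPM in vehicle and at 47.7, 57.2, 57.0 and 51.2 CPM in HPβCD. The HPβCD libraries lay close together and all above the vehicle libraries. For *C2* the log2 fold change was 1.04 ± 0.25 (SE), or 2.06-fold, with an adjusted p of 0.0638 by edgeR and 0.00501 by DESeq2. Without vehicle replicates 1 and 3 it was 0.70, with 0.0669 by edgeR and 0.00417 by DESeq2. *C4b*, the expressed C4 gene of the mouse, stood at 632 ± 126 CPM (SD, n = 4) in vehicle and 822 ± 197 CPM (SD, n = 4) in HPβCD, and was not called by either test (DESeq2 adjusted p = 0.313). *C4a*, a near copy, had 2 to 11 counts per library and did not pass the filter of edgeR. DESeq2 did not call it (adjusted p = 0.845). The copies share 1306 of the 75-base stretches, 22.7% of those in *C4b*.

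*C2* lies next to *Cfb* (complement factor B) within the major histocompatibility region on chromosome 17. A readthrough gene, *Gm20547*, covers 42.8% of the exonic bases of *C2* and 79.5% of those of *Cfb* on the same strand and was listed at 0 counts in all 8 libraries. The levels of *C2* and *Cfb* are therefore uncertain, since reads in shared exons may have been left out.

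*C3*, the component on which all pathways meet, had the highest mean CPM of the 30 genes in both groups, although *Clu* was above it in vehicle replicate 3 (1057 CPM). It stood at 1052, 1260, 724 and 1448 CPM in vehicle and at 1702, 1999, 3169 and 1069 CPM in HPβCD. HPβCD replicate 4 lay within the vehicle range, and the other HPβCD libraries lay above it. For *C3* it was 0.82 ± 0.35 (SE) on the log2 scale, with an adjusted p of 0.165 by edgeR and 0.0952 by DESeq2. *Cfp* (properdin), which stabilises the alternative pathway enzyme, stood at 62.2 ± 9.79 CPM (SD, n = 4) in vehicle and 81.7 ± 24.0 CPM (SD, n = 4) in HPβCD. *Cfb*, the protease of that enzyme, was at 1.13 CPM or less in every library. *Cfd* (factor D), which activates factor B, had 1 count in all and was not tested. None of the tested genes among them was called by edgeR or DESeq2. In these libraries 3 counts, the number that a count of 0 allows, correspond to 0.0861 to 0.184 CPM, which covers counting error only.

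Among the terminal components, transcripts of *Hc* and *C7* were scarcer than those of *C6*. *Hc*, the mouse gene for C5, stood at 1.69 ± 0.774 CPM (SD, n = 4) in vehicle and 3.39 ± 1.09 CPM (SD, n = 4) in HPβCD, a log2 fold change of 0.99 ± 0.41 (SE). It was not called (adjusted p = 0.161 by edgeR, 0.114 by DESeq2), and HPβCD replicate 1 lay within the vehicle range. *C6*, a part of the pore, stood at 13.5 ± 4.95 CPM and 16.0 ± 6.46 CPM (SD, n = 4 each). *C7*, its partner, had 76 counts in all libraries together and did not pass the filter of edgeR in the full set. DESeq2 did not call it (adjusted p = 0.599).

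Among the 6 receptor genes, *Itgb2* was the one called by DESeq2. It encodes the β chain shared by the leukocyte integrins, including complement receptor 3. It stood at 194, 271, 170 and 249 CPM in vehicle and at 353, 401, 477 and 323 CPM in HPβCD. The groups did not overlap. Its log2 fold change was 0.81 ± 0.20 (SE), with an adjusted p of 0.0636 by edgeR and 0.00469 by DESeq2. *Itgam*, the α chain of complement receptor 3, stood at 169 ± 43.9 CPM (SD, n = 4) in vehicle and 155 ± 41.9 CPM (SD, n = 4) in HPβCD. Its log2 fold change was -0.13 ± 0.25 (SE) and was not called. In the annotation used here, *Gm49368* overlaps 68.7% of the exonic bases of *Itgam* on the same strand, so its counts are uncertain too.

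*C3ar1*, the receptor for the C3 fragment C3a, stood at 315 ± 99.8 CPM (SD, n = 4) in vehicle and 482 ± 69.5 CPM (SD, n = 4) in HPβCD, a log2 fold change of 0.61 ± 0.24 (SE). *C5ar1*, the signalling receptor for C5a, stood at 61.6 ± 32.1 CPM and 51.9 ± 7.30 CPM (SD, n = 4 each). Neither was called by edgeR or DESeq2, with DESeq2 adjusted p of 0.104 and 0.755. *C5ar2*, a second C5a receptor that does not couple to G proteins, differed by 0.03 ± 0.28 (SE) on the log2 scale. *Vsig4*, a macrophage receptor for C3b, stood at 3.33 ± 1.55 CPM and 4.47 ± 1.11 CPM (SD, n = 4 each) and was not called.

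Among the fluid-phase regulators, *Serping1* encodes C1 inhibitor, which inactivates C1r and C1s. It stood at 420, 717, 510 and 636 CPM in vehicle and at 1232, 1134, 2070 and 898 CPM in HPβCD. Every HPβCD library lay above every vehicle library. This was a log2 fold change of 1.22 ± 0.29 (SE), or 2.34-fold, with an adjusted p of 0.0624 by edgeR and 0.00168 by DESeq2. Without vehicle replicates 1 and 3 it was 1.00, with an adjusted p of 0.136 by edgeR and 0.00869 by DESeq2.

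*Cfi*, the protease that cuts C3b and C4b, stood at 2.55, 5.60, 2.60 and 4.63 CPM in vehicle and at 7.01, 7.72, 8.75 and 6.88 CPM in HPβCD. These groups did not overlap either. Its log2 fold change was 0.97 ± 0.29 (SE), with an adjusted p of 0.0850 by edgeR and 0.0216 by DESeq2, and without vehicle replicates 1 and 3 DESeq2 gave 0.57 on the log2 scale with an adjusted p of 0.160. *Clu* (clusterin), a lipid-binding chaperone that blocks pore assembly, stood at 820 ± 229 CPM (SD, n = 4) in vehicle and 693 ± 338 CPM (SD, n = 4) in HPβCD and was not called. HPβCD replicate 3 had 1200 CPM of *Clu*, against 500 to 539 CPM in the other HPβCD libraries.

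Of the 4 membrane regulators, *Cr1l* had a log2 fold change above 0 and the other 3 below it, with a median of -0.53. *Cd55* encodes decay-accelerating factor, which takes apart the C3-splitting enzymes. It stood at 21.2, 34.2, 12.8 and 25.0 CPM in vehicle and at 9.19, 11, 11.8 and 15.7 CPM in HPβCD. All HPβCD libraries but replicate 4 lay below every vehicle library, and replicate 4 lay above vehicle replicate 3 alone. With all libraries the log2 fold change was -0.97 ± 0.30 (SE), with an adjusted p of 0.0889 by edgeR and 0.0332 by DESeq2. Without vehicle replicates 1 and 3 it was -1.30, with 0.0356 by edgeR and 4.45e-05 by DESeq2.

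*Cr1l* encodes Crry, the broadly expressed rodent regulator with activities of both decay-accelerating factor and membrane cofactor protein. It stood at 64.0, 69.7, 66.6 and 70.2 CPM in vehicle and at 185, 116, 147 and 73.2 CPM in HPβCD. The vehicle libraries were nearly equal, while the HPβCD libraries were spread widely and replicate 4 was only just above them. *Cr1l* had a log2 fold change of 0.95 ± 0.25 (SE), with an adjusted p of 0.0722 by edgeR and 0.00888 by DESeq2. Within each library the ratio of *Cr1l* to *Cd55* counts was 2.04 to 5.18 in vehicle and 4.67 to 20.1 in HPβCD, a ratio chosen after the values were seen and not tested. *Cd46* (membrane cofactor protein), the neighbour of *Cr1l* on chromosome 1 and in mice known mainly from testis, was at 0.962 CPM or less in every library. *Cd59a*, which blocks the pore, stood at 12.6 ± 3.44 CPM and 10.5 ± 1.97 CPM (SD, n = 4 each), and neither gene was called by edgeR or DESeq2.

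**Figure D3:**
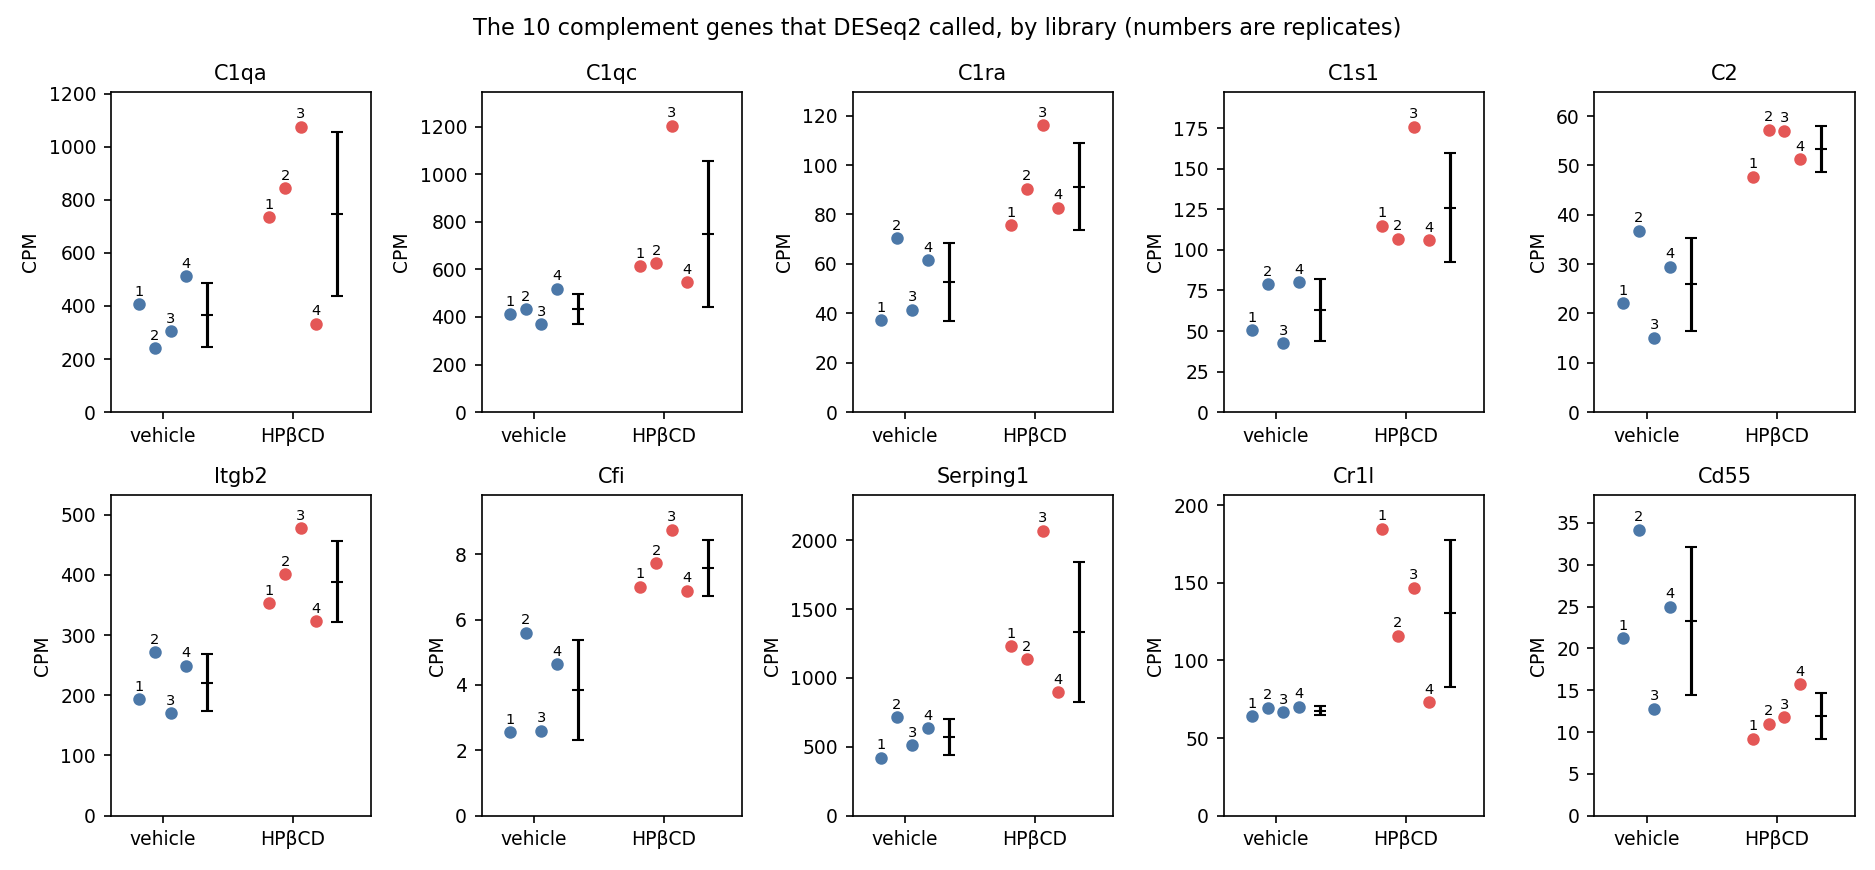
CPM of the 10 genes that DESeq2 called, on linear axes from 0, with 1 point per library labelled by its replicate number and a bar for mean ± SD (n = 4 per group). *C1qa* and *Cd55* are the panels in which the groups overlap, through HPβCD replicate 4 in *C1qa* and vehicle replicate 3 in *Cd55*.

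Levels between genes were compared per length, as counts over exon length with the same total in each library (a TPM-like level). Over the 8 libraries, *C1qb* had the highest mean (1568), followed by *C1qa* (1443), *Serping1* (1115), *C1qc* (820), *C3* (815), *Clu* (564) and *C4b* (338). The range of each gene overlapped that of the next gene in this order. These ranges span both groups and do not compare the genes within a library. The order of the means differed within groups. In HPβCD *C1qa* (2065) came before *C1qb* (2015), and in vehicle *C1qb* (1122) came first and *Clu* (548) lay above *C1qc* (529) and *C3* (519). *Clu* was above *C4b* within each of the 8 libraries, although their ranges overlapped. At the lower end, *Hc*, *Cfb*, *C7*, *Cd46*, *C4a*, *Masp2* and *Cfd* had means of 1.09 or less on this scale.

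The 30 genes together took 0.426% to 0.661% of gene counts in vehicle and 0.593% to 1.23% in HPβCD libraries. The highest share was in HPβCD replicate 3 and the lowest in vehicle replicate 3. *C3* alone made up 15.9% to 24.6% of these counts.

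Other genes of the pathway, 33 recognition molecules, proteases, terminal components, regulators and receptors, gave fewer measurable transcripts. Of these, 17 passed the filter, 11 with a fold change above 0 and 6 below, with a median of 0.35 on the log2 scale. edgeR called 1 of the 17, beside 1.95% of all genes. This was *Lrp1*, a receptor that takes up many ligands including C1q-tagged debris. *Lrp1* stood at 611, 760, 1027 and 753 CPM in vehicle and at 1782, 2052, 1867 and 1201 CPM in HPβCD, and rose by 1.13 ± 0.23 (SE) on the log2 scale with an adjusted p of 0.0499. In 5 of the 17 genes all HPβCD libraries were higher, beside 8.77% of all genes. Besides *Lrp1* these were *Thbd* (thrombomodulin, log2 fold change 0.86), *Calr* (calreticulin, 0.53), *Fcna* (ficolin A, 1.76) and *C8g* (0.61). *Megf10*, an engulfment receptor that binds C1q, was the only 1 of the 17 lower in all HPβCD libraries (-1.04), beside 8.03% of all genes.

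DESeq2 gave an adjusted p to 20 of these 33 genes. It called 4 higher (*Fcna*, *Thbd*, *Calr* and *Lrp1*), beside 6.1% of all genes. It called 3 lower (*Susd4*, *Cr2* and *Megf10*), beside 11.4% of all genes. *Susd4* and *Cr2* are named because DESeq2 called them, after their values were seen. *Cr2*, complement receptor 2 of B lymphocytes and follicular dendritic cells, stood at 16.5, 33.6, 4.12 and 16.2 CPM in vehicle and at 2.94 to 4.19 CPM in HPβCD. Its log2 fold change was -2.39, with an adjusted p of 0.0598 by edgeR and 0.00028 by DESeq2. Without vehicle replicates 1 and 3 it was -2.87, with 0.0121 by edgeR and 3.13e-15 by DESeq2. The 5 B lymphocyte markers summed to 135 to 494 CPM in vehicle and 41.7 to 124 CPM in HPβCD, and their part in the value of *Cr2* was not tested. *Susd4* reached 110 CPM in vehicle replicate 3, the library with the most neuronal RNA, and without vehicle replicates 1 and 3 its log2 fold change was 0.27 in place of -2.33. The recognition molecules *Mbl1* and *Crp* and the terminal components *C8a* and *C8b* were at 0 counts in all libraries, which allows up to 0.0861 to 0.184 CPM by counting error.

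Ratios of counts within a library do not depend on the scaling between libraries, so 8 ratios were used to ask whether gene pairs changed by the same factor. The exact two-sided permutation test over 70 assignments of 4 and 4 libraries cannot give a p below 0.0286. The ratio of *C3ar1* to *C5ar1* reached it. It was 5.02, 4.13, 7.08 and 6.05 in vehicle and 8.57, 9.98, 9.40 and 9.21 in HPβCD, so every HPβCD library lay above every vehicle library. The difference was 0.76 on the log2 scale, or 1.70-fold (exact permutation test, p = 0.0286, 0.183 after adjustment over the 8 ratios). It lay between 0.63 and 0.89 when any 1 library was left out, and was 0.89 without vehicle replicates 1 and 3.

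The ratio of *Clu* to *C1qa* was 1.31 to 3.46 in vehicle and 0.638 to 1.5 in HPβCD (difference -1.27, exact permutation p = 0.0571, adjusted 0.183). *C4b* to *C3* (-0.39, exact permutation p = 0.114), *Serping1* to *C1s1* (0.16, exact p = 0.371) and *C1s1* to *C1qa* (0.06, exact p = 0.8) overlapped between the groups. The C1 inhibitor and its target protease thus did not differ detectably in proportion, with *Serping1* at 7.92 to 12 times *C1s1* in vehicle and 8.45 to 11.7 times in HPβCD.

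**Figure D4:**
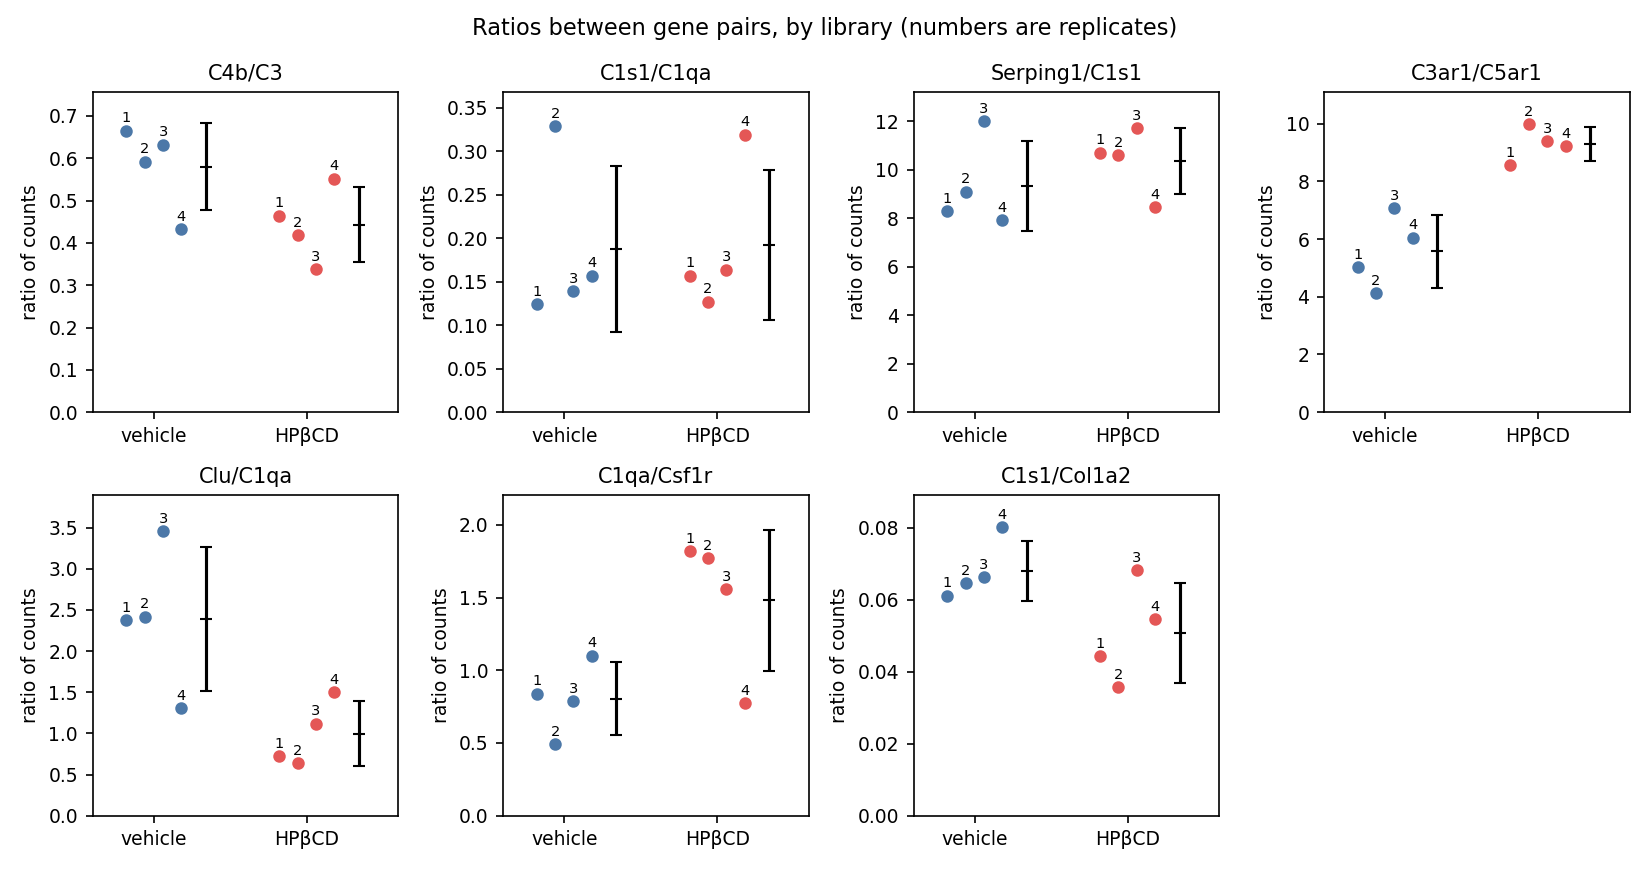
Ratios of counts between 7 gene pairs, on linear axes from 0, with 1 point per library labelled by replicate number and a bar for mean ± SD (n = 4 per group). The *C3ar1*/*C5ar1* panel is the one in which the groups do not overlap.

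Cell type markers also differed between the groups, some lists being higher and others lower after HPβCD. The 7 foamy macrophage markers (such as *Gpnmb*, *Spp1* and *Trem2*) summed to 6848 to 12233 CPM in vehicle and 15124 to 24910 CPM in HPβCD, with 6 of 7 higher and 1 called by edgeR. The 7 fibroblast markers summed to 2298 to 5863 CPM and 8433 to 9034 CPM, with all 6 tested markers higher and 3 called. The 6 pan-macrophage markers summed to 769 to 1113 CPM and 1077 to 1743 CPM, with 4 of 6 higher. The 6 microglia markers summed to 488 to 1015 CPM and 649 to 1055 CPM, but 4 of 6 were lower, 1 of them called by edgeR, with a median log2 fold change of -0.92. The sums of foamy macrophage and fibroblast markers thus did not overlap between groups, and those of macrophages in general and of microglia did. The 7 astrocyte markers went the other way, from 2170 to 9024 CPM in vehicle to 626 to 2487 CPM in HPβCD, with all 7 lower. Also lower were all 6 tested neuron, 5 of 6 oligodendrocyte, 4 of 5 border macrophage and all 5 B lymphocyte and 5 plasma cell markers. Of these, edgeR called 2 B lymphocyte markers and 1 plasma cell marker. Over all genes it called 1.95%. Plasma cell sums were 1109 to 2531 CPM in vehicle and 235 to 450 CPM in HPβCD. All 6 mural cell, all 5 dendritic cell and 5 of 6 endothelial markers were higher. Oligodendrocyte precursor markers summed to 215 to 368 CPM in vehicle and 441 to 516 CPM in HPβCD, although 4 of 6 were lower. The part of these cells in the complement values was not tested.

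Of the 8 ratios, 2 set a complement gene against a cell type marker. *C1qa* over *Csf1r*, a receptor of all macrophages and microglia, was 0.494 to 1.10 in vehicle and 0.773 to 1.82 in HPβCD (difference 0.86 on the log2 scale, exact permutation p = 0.114). *C1s1* over *Col1a2*, a fibroblast collagen, was 0.0612 to 0.0802 in vehicle and 0.0358 to 0.0682 in HPβCD (difference -0.46, exact permutation p = 0.114). Relative to these markers *C1qa* thus had a higher mean and *C1s1* a lower mean after HPβCD, both within overlapping ranges. Of the 5 hepatocyte markers *Alb* and *Serpina1a* were at 0 in all libraries, and the sum of the 5 was 3.75 CPM or less.

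**Figure D5:**
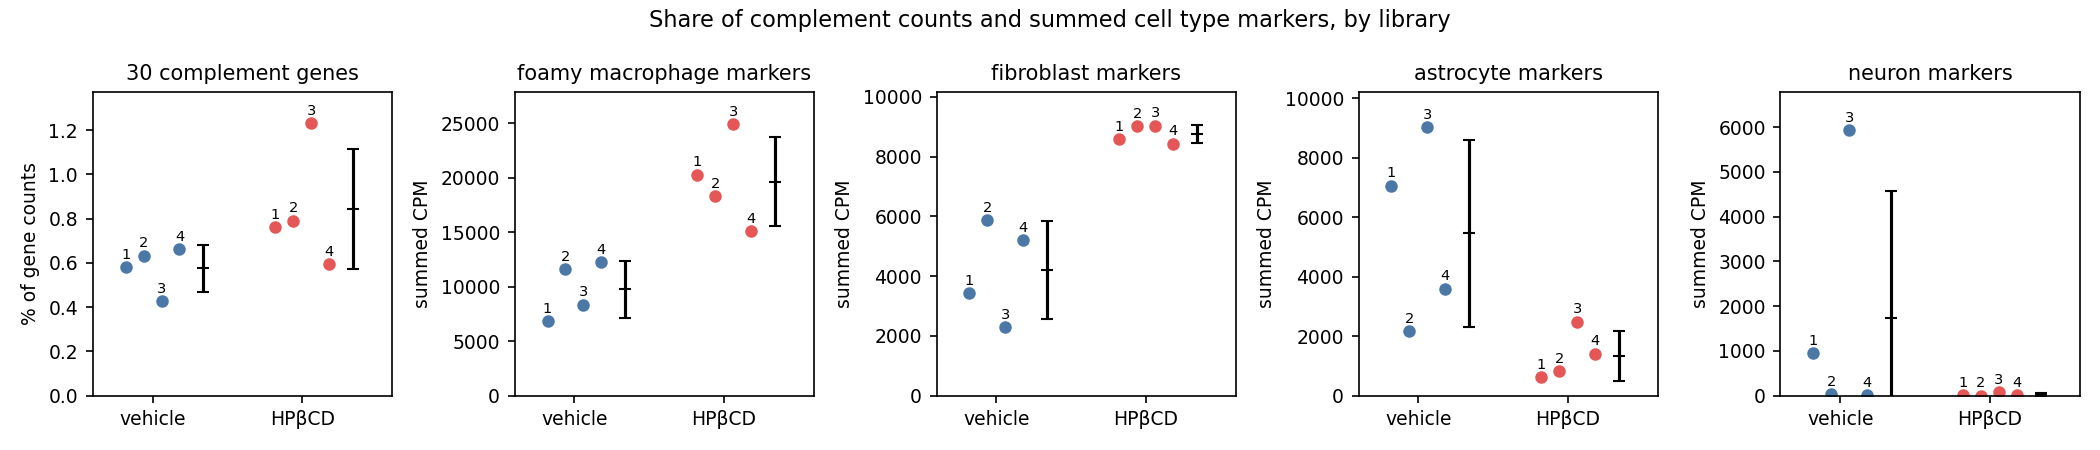
Percent of gene counts taken by the 30 complement genes and summed CPM of 4 sets of cell type markers, on linear axes from 0, with 1 point per library labelled by replicate number and a bar for mean ± SD (n = 4 per group, the lower arm cut at 0 for neurons). Foamy macrophage and fibroblast sums are higher in all HPβCD libraries, and neuron sums stand out in vehicle replicates 1 and 3.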

How the data were processed

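Infarct RNA of 8 mice was sequenced from strand-specific libraries of polyadenylated RNA. The authors trimmed reads with Trimmomatic 0.32, aligned them to GRCm38 with STAR 2.5.2b and counted them with HTSeq, per the labels and the methods. The strand and overlap settings of the counting and the annotation release are not given in the sources used here. The authors deposited raw counts per gene, 1 table per animal, and between 26.6% and 36.6% of the counted entries in a library were assigned to no gene and left out. Groups came from the sample labels, which give no batch. Every pair of libraries differed by more than sampling noise (lowest chi-square per degree of freedom 18.9). The labels number the samples within a group, and p-values measure the spread between these samples.

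Counts were tested with edgeR 4.0.16 (R 4.3.3; TMM scaling, filterByExpr by group, robust quasi-likelihood F test, no covariate), with Benjamini-Hochberg adjustment over 14736 genes and a threshold of 0.05. DESeq2 1.42.0 and limma 3.58.1 (voom) were alternatives, with other scalings, filters, a replicate block and libraries left out. CPM are counts relative to the TMM-scaled size of each library. Ratios had 0.5 added to each count and were tested by exact permutation, and 1 of the 8 is not reported here. Gene positions and lengths are from GENCODE M21 on GRCm38, and promoters from RefSeq. The procedure was checked on simulated data.

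The 30 genes, the other lists and the tests were chosen with earlier results of these data known, so their pattern is no independent support. All 30 genes are reported. Those called by edgeR or DESeq2 or without overlap, and the 3 of highest level per length, are given in every library. Of the other complement genes, those called by edgeR or without overlap are named, at most 3 per role. Other genes of the pathway were called from the same fit. DESeq2 without vehicle replicates 1 and 3 was added after the data were seen.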

Additional observations from a re-analysis of the deposited data

Results flagged for a closer look

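In 3 of the 68 groups of 4 libraries examined for single libraries far from the others (Dixon's criterion), such a library was found, where chance alone would give 3.4. *C1s1* was at 7.46 log2 CPM in HPβCD replicate 3, against 6.73 to 6.85 in the other HPβCD libraries. *Clu* was at 10.23 log2 CPM in the same library, against 8.97 to 9.07. *Vsig4* was at 0.23 log2 CPM in vehicle replicate 1, against 1.88 to 2.17 in the other vehicle libraries.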

How the results depend on the processing

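The number of complement genes called was 0 by edgeR in the main setting, 10 by DESeq2, 10 by limma-voom with sample quality weights, 6 by DESeq2 without vehicle replicates 1 and 3 (added after seeing the data) and 1 by edgeR without them. It was 0 under the other scalings and filters, thinning and the replicate block, and 0 to 2 when any 1 library was left out (*Cr1l* without HPβCD replicate 4, *C2* without vehicle replicate 2, *C2* and *Cd55* without vehicle replicate 3). Over all genes, 287 were called in the main setting, 2911 by DESeq2, 3253 by limma-voom, 1240 by DESeq2 without vehicle replicates 1 and 3, 57 with upper quartile scaling, 11 with library totals only and 11 with a mean of at least 1 CPM. With 1 library left out it was 0 to 629, with 0 in each fit without HPβCD replicate 2 or 3 or vehicle replicate 1 or 4 (2922 to 4216 genes at an unadjusted p under 0.05). Of the other complement genes, 1 was called in the main setting, 7 by DESeq2 and limma-voom, 3 by DESeq2 and 2 by edgeR without vehicle replicates 1 and 3, 0 with library totals only, upper quartile scaling, the 1 CPM filter or thinning, and 0 to 2 with 1 library left out.

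Genes without overlap numbered 8 in the main setting and 8 to 14 with 1 library left out (14 without HPβCD replicate 4). Groups separate more easily with fewer libraries, and the share over all genes was not counted for these reduced sets. The median over the members was 0.35 to 0.68 with 1 library left out, lowest without HPβCD replicate 3. The cause of these shifts was not tested. Deviations of same-numbered libraries correlated at -0.26, 0.24, 0.33 and 0.10. Vehicle replicates 2 and 3 correlated best with their same-numbered libraries. Vehicle replicate 1 correlated best with HPβCD replicate 3 (0.35) and vehicle replicate 4 with HPβCD replicate 2 (0.24). These values gave no consistent sign of pairing by replicate number and cannot show that it is absent. With the replicate block 9 genes were called, 0 of them members and 0 of them other complement genes.

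Directions turned in 5 genes, whose log2 fold changes were between -0.25 and 0.25 in the main setting. *C6* was -0.13 by DESeq2 and -0.12 by edgeR without vehicle replicates 1 and 3, -0.23 by limma-voom and -0.05 to 0.45 with 1 library left out, below 0 without HPβCD replicate 3. *C5ar2* was -0.27 by both tools without vehicle replicates 1 and 3, -0.06 with library totals only, -0.02 by limma-voom and -0.11 to 0.21 with 1 library left out, below 0 in 4 of these fits (-0.11, -0.1, -0.04 and -0.0065). *Clu* was 0.15 by DESeq2 and 0.16 by edgeR without vehicle replicates 1 and 3. With 1 library left out, *C5ar1* was -0.49 to 0.15 and *Itgam* -0.32 to 0.00059, both above 0 without vehicle replicate 2. The other 21 tested members kept their direction in all settings run. Low counts kept *Masp2*, *Cfd*, *C4a* and *C7* out of the main edgeR fit. DESeq2 gave no adjusted p to *Masp2* and *Cfd*, and called neither *C4a* nor *C7*.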

Other observations

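The 3 C1q genes were not in fixed proportion across libraries. The ratio of *C1qa* to *C1qb* counts was 0.436 in vehicle replicate 2 and 0.506 in HPβCD replicate 4, against 0.775 to 1.22 in the other 6 libraries, so both low values came from different groups. The ratio of *C1qc* to *C1qb* was 0.784 to 1.10 over all 8 libraries. The same pair of libraries had the highest ratios of *C1s1* to *C1qa*, 0.329 and 0.319, against 0.124 to 0.164 elsewhere. Both ratios contain the *C1qa* counts, so these results are not independent. These patterns were noticed in the data and not tested.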
